A study of Mus musculus with 4 samples.

Results

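The genes described here encode proteins with which lymphocytes hold on to other cells and to matrix. They are 5 integrin chains (Itgal, Itga4, Itgb1, Itgb2 and Itgb7), 2 integrin ligands (Icam1 and Icam2), the selectin ligand Selplg and the hyaluronan receptor Cd44. They were chosen by name, 9 of the 37646 genes listed, and each matched 1 row of the count tables. No selectin gene is among them.

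RNA came from sorted splenic cells of C57BL/6 mice of the genotype YFPstopF/+Cg1Cre/+, in which a Cre recombinase made from the Ighg1 (Cg1) locus switches on a YFP reporter. The mice had been injected 2 times, 20 days apart, with sheep red blood cells, and their spleens were collected 10 days after the later injection. The sources used here give no ages. Sorting kept living YFP+ cells that also carried B220, the CD45 form of B cells, and the labels call them normal germinal centre B cells. All 4 libraries form this 1 group, every library carries both alleles, and lymphoma samples were not analysed here, so the comparisons are between genes within a library and between libraries. The reporter stays on in memory and plasma cells that once expressed Cre, so the sort is not limited to cells in germinal centres.

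Integrins are pairs of an alpha and a beta chain. The Itgal and Itgb2 products form LFA-1, whose ligands are the Icam1 and Icam2 products, while the Itga4 product pairs with that of Itgb1 to form VLA-4, which binds VCAM-1, or with that of Itgb7, a pair that binds MAdCAM-1 in gut vessels. In the germinal centre, B cells use LFA-1 and VLA-4 to hold on to follicular dendritic cells, and their own ICAM proteins are bound by LFA-1 of T cells. PSGL-1, the Selplg product, binds selectins once it carries the right sugars, and CD44 binds hyaluronan and is linked to actin by ezrin, radixin and moesin.

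Each library held between 13777954 and 14629025 counts. The 10 germinal centre markers and the 8 B lineage markers all exceeded a level of 1 TPM (transcripts per 1000000 transcripts) in every library, with Bcl6, the repressor that germinal centre cells need, at 71.8 ± 24.5 TPM (SD, n = 4). Markers of naive and memory B cells were present too, led by Klf2 at 1058 ± 407 TPM, as were T cell markers, of which 12 of 12 exceeded 1 TPM in every library and Trac, a T cell receptor constant gene, was the highest at 135 ± 61.9 TPM. Of 7 endothelial and stromal markers, 0 exceeded 1 TPM in all 4 libraries. Library 3 stood apart from the others in carrying Y-linked Ddx3y (1307 counts, at most 3 elsewhere) and nearly lacking Xist (6 counts, at least 8689 elsewhere), so sex and any other difference of library 3 cannot be told apart. The labels do not say that the libraries came from separate animals, and p-values measure only the spread between these samples, which may be technical in part. In such bulk samples, fewer cells of a type and less RNA per cell cannot be told apart.

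All 9 genes were expressed. Each exceeded 1 TPM in every library, as 53.3% of 18701 protein-coding genes did. The median of the 9 was 60.5 ± 2.07 TPM, against 2.45 TPM over all protein-coding genes. Over the 10571 protein-coding genes with a mean over 1 TPM the median was 15.0 TPM. The counts behind these levels ran from 577 to 4689 per library, which gives a counting error of 1.51 to 3.48%. Levels in TPM are per gene length, taken as the union of annotated exons.

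The beta chain of LFA-1 was the most abundant of the 9. Itgb2 (chromosome 10, 77530252 to 77565708, GRCm38) stood at 164, 158, 176 and 153 TPM in libraries 1, 2, 3 and 4. Its alpha chain partner Itgal (chromosome 7, 127296260 to 127335138) stood at 101, 96.3, 115 and 113 TPM. The ranges of these 2 genes did not overlap, and Itgb2 was above 96.3% of the protein-coding genes with a mean over 1 TPM and Itgal above 93.1%.

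The chains of the alpha 4 integrins were lower and less even. Itgb7 (chromosome 15, 102215995 to 102231944) stood at 90.4, 96.7, 57.9 and 63.5 TPM in libraries 1 to 4. Itgb1 (chromosome 8, 128685654 to 128733200), the beta chain with the widest choice of partners, stood at 58.5, 44.6, 70.6 and 60.8 TPM. Itga4 (chromosome 2, 79255426 to 79333123), the chain that Itgb7 and Itgb1 share, was the lowest of the 9, at 27.0, 30.9, 19.0 and 23.3 TPM. Itgb7 was high in libraries 1 and 2 and low in 3 and 4, and Itga4 had the same order of libraries, whereas Itgb1 was lowest in library 2. Of the exon bases of Itga4, 8.04% lie opposite Cerkl (10 to 26 counts per library), and since use of strand was not stated, reads of this overlap cannot be assigned.

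The ligand genes were close to each other in level. Icam2 (chromosome 11, 106377656 to 106388075), whose product is found on resting lymphocytes, stood at 64.1, 69.2, 74.8 and 68.2 TPM. Icam1 (chromosome 9, 21015985 to 21028817), which NF-κB induces in activated cells, stood at 51.3, 58.0, 59.9 and 53.9 TPM. Icam2 was thus above Icam1 in every library, and their ranges did not overlap. An antisense gene, Gm47079, lies opposite 11.7% of the Icam1 exon bases and had 0 to 3 counts.

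Selplg (chromosome 5, 113818536 to 113832644) had the widest range, 63.0, 38.5, 22.9 and 43.1 TPM in libraries 1, 2, 3 and 4. Library 1 was the highest and library 3 the lowest. Cd44 (chromosome 2, 102811141 to 102901665), a marker of activated and memory lymphocytes in mice, stood at 40.7, 45.4, 52.2 and 54.9 TPM. Its libraries lay near each other, with library 1 lowest. Counts per gene do not tell the variant exons of Cd44 apart.

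In order of mean level the genes were Itgb2, Itgal, Itgb7, Icam2, Itgb1, Icam1, Cd44, Selplg and Itga4. Of the 8 pairs of neighbours in this order, 1 had ranges apart (Itgb2 and Itgal), and 7 overlapped. Icam2 over Itgb1 and Selplg over Itga4 also kept their order in all 4 libraries. With the length of the longest transcript in place of all exons, Selplg was at 67.1 TPM and lay above Itgb1, Cd44 and Itga4, so places in the middle of the order depend on how length is taken. Without division by length the ends changed too: Itgal was highest at 309 CPM, above Itgb2 at 220.1 CPM, Itga4 came next at 157 CPM, and Icam2 was lowest at 58.3 CPM.

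**Figure D1:**
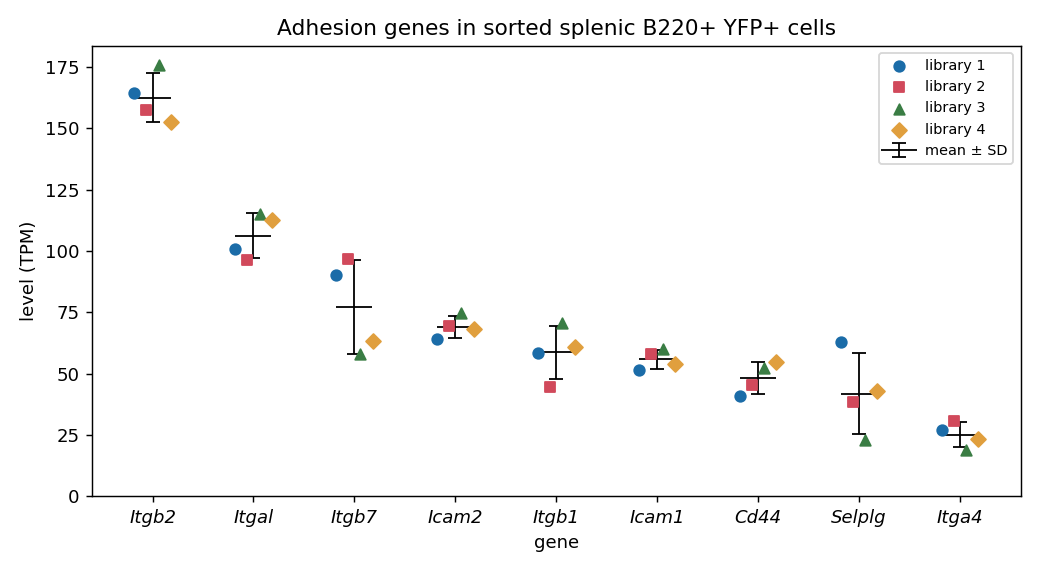
Level of each of the 9 adhesion genes in TPM, with a point for each of the 4 libraries and a bar for the mean ± SD, from the highest mean to the lowest. Itgb2 lies apart from all others, Selplg spreads from 22.9 to 63.0 TPM, and Itga4 is lowest.

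Chains that pair in the same protein were compared within each library. Itgal was at 0.61, 0.61, 0.65 and 0.74 of the Itgb2 level in libraries 1 to 4, a difference of -0.61 ± 0.13 in log2(TPM + 1). Itga4 was at 0.30, 0.32, 0.33 and 0.37 of the Itgb7 level, a difference of -1.57 ± 0.13. The Itga4 share of the Itgb7 level thus ran from 0.30 to 0.37 over the 4 libraries. In TPM, Itga4 on its own differed 1.62-fold and Itgb7 1.67-fold between them.

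Against its other partner Itga4 was uneven. Its level was 0.46, 0.69, 0.27 and 0.38 of that of Itgb1, a difference of -1.20 ± 0.55, lowest in library 3. Itgb1 was at 0.65, 0.46, 1.22 and 0.96 of the Itgb7 level, a difference of -0.37 ± 0.61. This last difference was smaller than the spread between libraries, and Itgb1 was the higher gene only in library 3; without library 3 it was -0.59 and without library 2 it was -0.13.

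The ligand pair was the most even. Icam1 was at 0.80, 0.84, 0.80 and 0.79 of the Icam2 level, a difference of -0.30 ± 0.04. With the longest transcript's length this difference was -0.10, that of Itgal and Itgb2 was -0.32 and that of Itga4 and Itgb1 was -0.79.

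Of these 5 pairs, 4 had the same direction in 4 of 4 libraries, and each of these gave p = 0.13 in a two-sided exact sign-flip permutation test, the smallest p that 4 libraries allow, with an adjusted p of 0.16 over the 5 pairs. For Itgb1 and Itgb7 the exact permutation p was 0.38. Without division by gene length all 5 differences changed direction, so they rest on comparing levels per length.

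**Figure D2:**
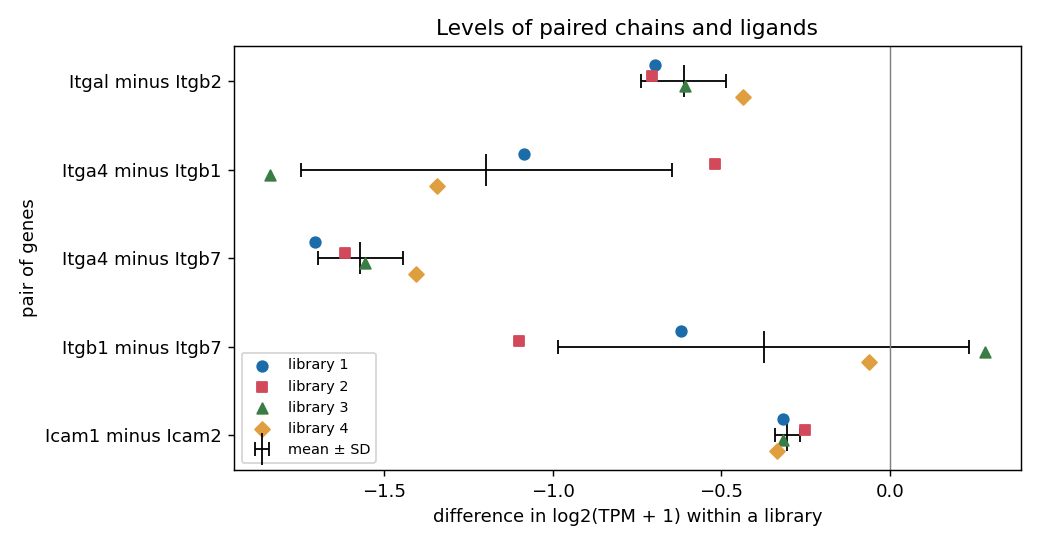
Difference in log2(TPM + 1) between the 2 genes of a pair within each library, with points for the 4 libraries and a bar for the mean ± SD. Icam1 minus Icam2 is the tightest, and Itgal minus Itgb2 and Itga4 minus Itgb7 have a like spread. Both pairs with Itgb1 spread widely, and Itgb1 minus Itgb7 lies on both sides of 0.

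Other alpha chains that can take the same beta chains were scarce. Itgal made up 90.6, 91.8, 95.3 and 90.5% of the summed TPM of the 4 alpha chains that pair with Itgb2. The rest were Itgax at 6.01 ± 2.13 TPM, Itgad at 1.66 ± 0.45 and Itgam at 1.47 ± 0.44, which are chains of myeloid and dendritic cells that some B cells also express. Itga4 made up 89.7, 94.3, 93.8 and 92.5% of the alpha chains that pair with Itgb7, beside Itgae at 2.04 ± 0.78 TPM, an integrin chain of T cells in epithelia.

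The partners of Itgb1 were more mixed. Of 12 alpha chains counted, Itga4 made up 65.0, 68.8, 52.4 and 57.2% in libraries 1, 2, 3 and 4, lowest in library 3. Itgav followed at 11.9 ± 3.78%, Itga6 at 11.1 ± 2.48% and Itga10 at 9.95 ± 4.86%. Shares of RNA are not shares of protein on the surface.

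**Figure D3:**
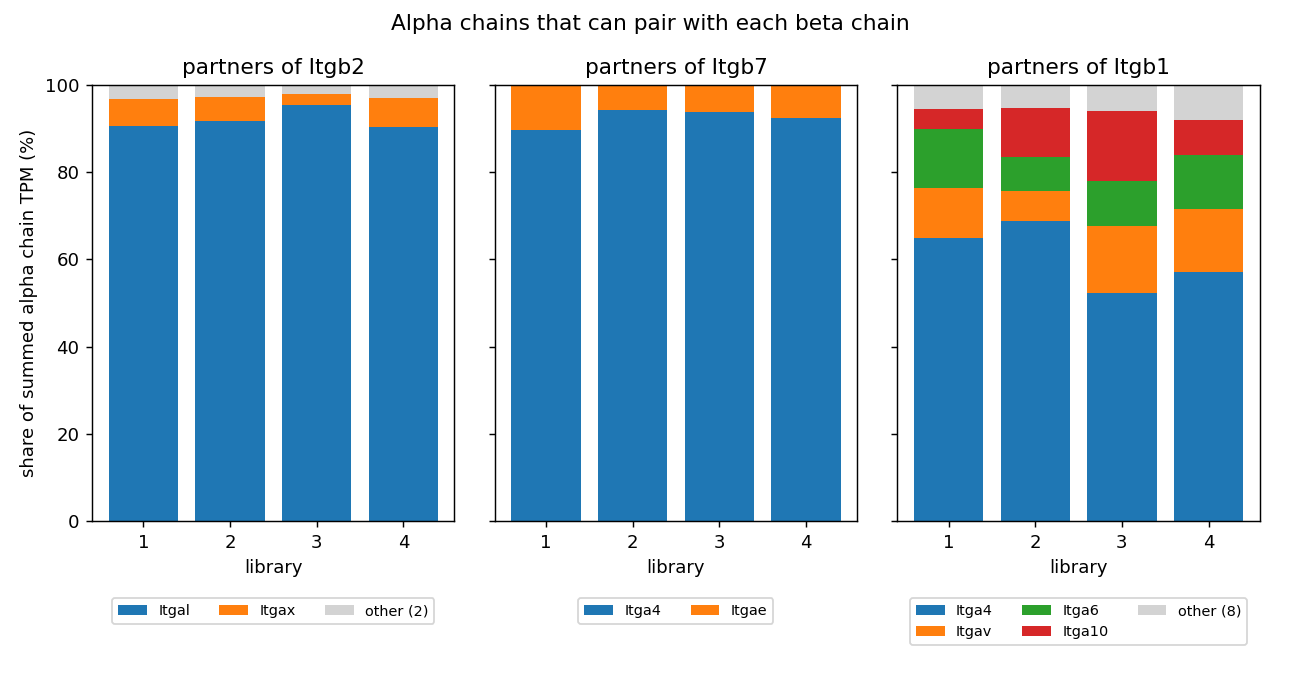
Share, in percent of summed TPM, of each alpha chain that can pair with Itgb2, Itgb7 or Itgb1, in each library. Itgal fills over 90% of the Itgb2 partners in all 4 libraries, and Itga4 fills from 52.4 to 68.8% of the Itgb1 partners.

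Lists of related genes were set beside the 9. For comparison, 53.3% of all protein-coding genes exceeded 1 TPM in every library, and their median was 2.45 TPM. Of 21 other integrin chains, 10 exceeded 1 TPM in every library, which is near that share, with a median of 0.58 TPM over the list. The highest were Itgb3 (12.2 ± 3.69 TPM), Itgax and Itgav (4.79 ± 1.24), and the lowest was Itga11 (0.038 ± 0.029).

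The machinery that switches integrins from inside the cell was well expressed. Of 20 genes 16 exceeded 1 TPM in every library, with a median of 44.2 TPM, led by Sipa1 (455 ± 47.9), which turns off the GTPase RAP1, by Rap1b (212.5 ± 36.5), a RAP1 gene itself, and by Tln1 (153 ± 11.7), the talin that binds beta chain tails. Fermt1, the kindlin of epithelia, had 0 counts in every library, which allows up to 0.205 to 0.218 CPM (counts per 1000000 counts), whereas Fermt3, the kindlin of blood cells, stood at 130, 114, 156 and 137.5 TPM.

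Genes of other adhesion receptors and ligands were mostly near 0. Of 17 listed, 15 matched a row, and 4 exceeded 1 TPM in every library, with a median of 0.48 TPM. Cd48 (174 ± 9.49), a ligand of CD2, Cd2 (148.5 ± 16.7) and Pecam1 (33.4 ± 3.0), an adhesion gene of endothelium and leukocytes, were highest, and Cd34, with 1 count in library 2, was lowest.

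Of 10 enzyme genes that fit PSGL-1 for selectin binding, 8 exceeded 1 TPM in every library, led by the tyrosine sulfotransferases Tpst1 (42.2 ± 9.12) and Tpst2 (35.1 ± 6.33) and by B4galt1 (34.6 ± 4.91). Fut7, the fucosyltransferase that makes the selectin-binding sugar in leukocytes, was the lowest at 0.18 ± 0.15 TPM, with 1, 6, 1 and 3 counts in libraries 1 to 4. Of 10 genes of CD44 partners, 5 exceeded 1 TPM in every library, near the 53.3% of all protein-coding genes. The highest were Ezr (293 ± 83.4) and Msn (275 ± 42.2), which encode ezrin and moesin, and Nf2 (20.0 ± 2.45), and the hyaluronan synthase gene Has1 had 0 counts in every library.

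Libraries were compared on another scale, CPM normalised by trimmed mean of M-values (TMM), because TPM moves with the mitochondrial share of each library, which was 18.1 to 23.3% of counts. On this scale the 9 genes split into an even and an uneven group. Itgal stood at 302, 318, 297 and 319 CPM in libraries 1 to 4, a coefficient of variation of 3.66%. Itgb2, Icam2, Itgb1, Cd44 and Icam1 had coefficients from 8.23 to 11.7%, near or below the median of 11.6% over 3774 protein-coding genes with a mean of at least 50 CPM.

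Selplg, Itgb7 and Itga4 were the uneven genes. Selplg had 1734, 1075, 577 and 1166 counts, or 122.5, 82.6, 38.4 and 79.4 normalised CPM, in libraries 1, 2, 3 and 4, a 3.19-fold range. Itgb7 had 1612, 1751, 946 and 1114 counts, or 114, 134.5, 63.0 and 75.9 normalised CPM, a 2.14-fold range. Itga4 had 2431, 2820, 1568 and 2067 counts, or 172, 217, 104 and 141 normalised CPM, a 2.08-fold range. Library 3 was the lowest for each of the 3 genes, and library 2 the highest for Itgb7 and Itga4 and library 1 for Selplg, under each of 4 scalings (TMM, CPM, TPM, and TPM without mitochondrial and immunoglobulin genes).

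Whether a gene varied more than genes of its level do was tested over 11982 genes with edgeR's quasi-likelihood dispersions. After Benjamini-Hochberg adjustment 1 gene passed, an immunoglobulin V segment, which is 0.00835% of those tested, and 0 of the 9 did. With no adjustment, 3 of the 9 had p below 0.05, against 4.97% of all genes tested; the 9 were chosen with earlier results known, so this share is a description. Selplg stood at 14.7 times the trend (edgeR unadjusted p = 0.00674, adjusted p = 0.528), Itgb7 at 8.71 times (edgeR unadjusted p = 0.0203, adjusted p = 0.783) and Itga4 at 7.05 times (edgeR unadjusted p = 0.0309, adjusted p = 0.874). The other 6 had adjusted p-values of at least 0.990. The ratios to the trend moved with single libraries: leaving out library 3 gave 4.17 for Selplg, 5.93 for Itgb7 and 3.45 for Itga4. Leaving out library 2 gave 26.9 for Selplg, and leaving out library 1 gave 16.2 for Itgb7 and 14.5 for Itga4. Without a filter on low counts the edgeR adjusted p of Selplg was 0.0417. Without library 3 the unadjusted edgeR p was 0.0700 for Selplg, 0.0354 for Itgb7 and 0.0971 for Itga4, and without library 2 it was 0.0592 for Itga4.

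**Figure D4:**
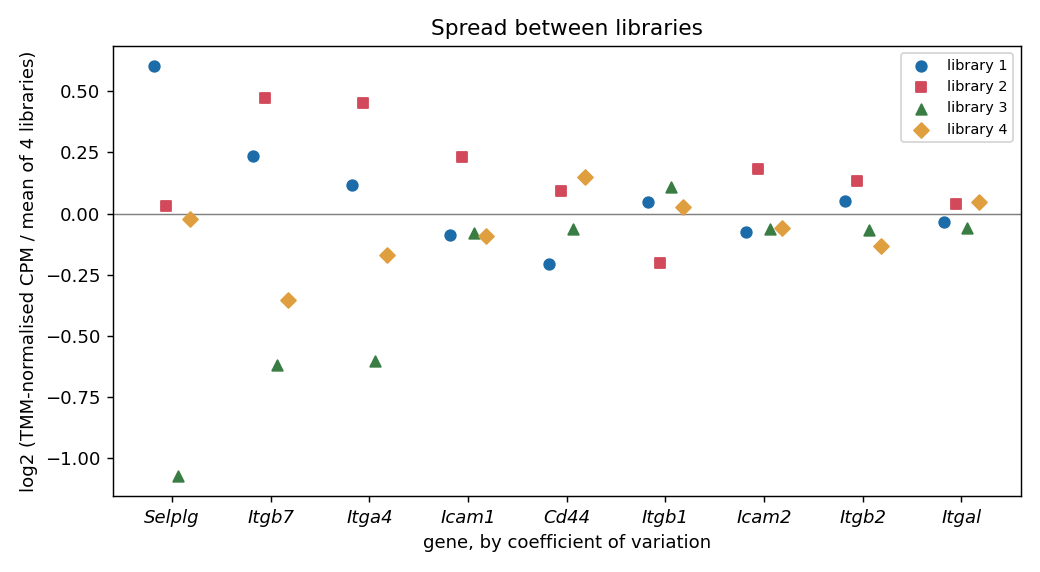
Level of each gene in each of the 4 libraries relative to its mean over them, as log2 of TMM-normalised CPM, with genes ordered from the largest to the smallest coefficient of variation. Selplg, Itgb7 and Itga4 have library 3 at the bottom, and Itgal stays near 0 in all 4 libraries.

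Markers of other cells also differed between libraries, and several had the same extremes as Selplg. The summed normalised CPM of the 12 T cell markers was 492.5, 239, 176 and 413 in libraries 1 to 4. The 7 NK cell markers summed to 76.3, 39.0, 27.6 and 60.5, and the 8 macrophage and monocyte markers to 195, 130, 118.5 and 146. On this scale these lists, like Selplg, were highest in library 1 and lowest in library 3. So were the platelet markers (27.2 and 3.59) and the endothelial and stromal markers (11.7 and 2.66). The endothelial and stromal sum rests on few counts, of which Vwf had 121, 35, 16 and 41 in libraries 1 to 4. The neutrophil markers, at 81.3, 53.2, 46.0 and 113.6, and the dendritic cell markers were highest in library 4. In TPM the macrophage and monocyte sum was lowest in library 2, at 138, against 181 in library 3. Members of that list disagreed. Ly6c2 (488, 327, 95 and 437 counts in libraries 1 to 4) and C1qa (202, 180, 144 and 179) had the fewest counts in library 3. Lyz2, the highest gene, had the fewest in library 2 (282, against 516 in library 3), and Cd68 had the most in library 3 (468). T cells, NK cells and myeloid cells also express Selplg. The part of any of these cells in the range of Selplg was not tested.

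In normalised CPM the summed plasma cell markers had the same order of libraries as Itgb7 and Itga4. The 6 plasma cell markers summed to 2408, 2562, 1147 and 2229 normalised CPM in libraries 1 to 4, so that, as for those genes, library 2 was highest, followed by libraries 1, 4 and 3. In TPM the order differed: the sum was 1932, 1788, 954 and 1825, highest in library 1. The list was not uniform either. Jchain, its highest gene, had the most counts in library 1 (25510), whereas Irf4 had the fewest there (2866, against 4712 to 5248 in the others). The 8 naive and memory B cell markers summed to 1467, 2887, 1712 and 1906, highest in library 2 and lowest in library 1. Members of this list disagreed as well. Fcer2a had the fewest counts in library 1 (5539) and the most in library 3 (9718). Klf2 had the fewest in library 3 (8534, against 8950 in library 1) and the most in library 2 (19691). The 10 germinal centre markers summed to 2195, 1501, 2034 and 1636, lowest in library 2. The part of these lists in the ranges of Itgb7 and Itga4 was not tested.

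**Figure D5:**
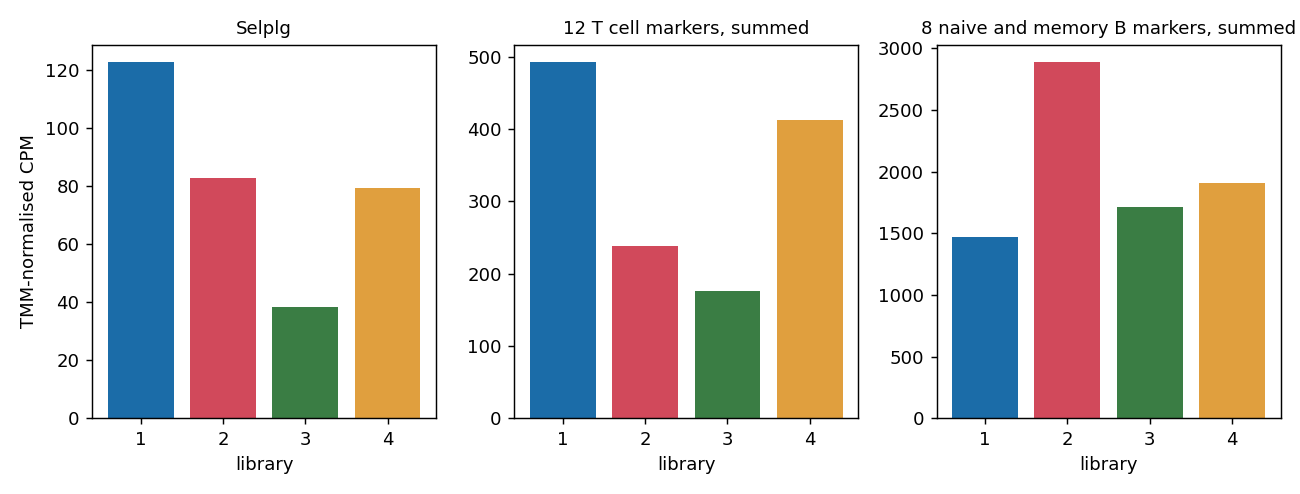
TMM-normalised CPM of Selplg and summed TMM-normalised CPM of the T cell markers and of the naive and memory B cell markers, with a bar for each library. Selplg and the T cell markers are highest in library 1 and lowest in library 3, and the naive and memory markers are highest in library 2.

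RefSeq promoter sequences were at hand for 5 of the 9 genes. The 250 bases before the start of Itga4 and Itgb7 are shown because these genes had the same order of libraries, and those of Icam1 because it is the member best known as an NF-κB target. Capitals mark CACCC, the box bound by Krüppel-like factors such as KLF2, which is needed for normal Itgb7 levels on mouse B cells, and GGAANTTCC, an NF-κB type motif, each on either strand; the matches do not overlap. Positions are GRCm38.p6, and each sequence reads 5′ to 3′ on the strand of its gene. Itga4 lies at chr2:79255176-79255425 on the plus strand, Itgb7 at chr15:102231936-102232185 on the minus strand and Icam1 at chr9:21015690-21015939 on the plus strand.
Itga4: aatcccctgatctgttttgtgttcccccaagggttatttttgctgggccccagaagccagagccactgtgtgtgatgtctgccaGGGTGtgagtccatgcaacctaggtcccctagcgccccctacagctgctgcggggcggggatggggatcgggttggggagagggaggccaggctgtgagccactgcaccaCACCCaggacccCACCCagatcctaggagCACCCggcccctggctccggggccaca
Itgb7: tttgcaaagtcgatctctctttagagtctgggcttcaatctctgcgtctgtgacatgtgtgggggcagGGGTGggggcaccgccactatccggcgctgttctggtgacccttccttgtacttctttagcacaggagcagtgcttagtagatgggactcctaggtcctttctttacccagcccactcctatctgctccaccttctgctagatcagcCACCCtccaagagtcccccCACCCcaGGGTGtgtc
Icam1: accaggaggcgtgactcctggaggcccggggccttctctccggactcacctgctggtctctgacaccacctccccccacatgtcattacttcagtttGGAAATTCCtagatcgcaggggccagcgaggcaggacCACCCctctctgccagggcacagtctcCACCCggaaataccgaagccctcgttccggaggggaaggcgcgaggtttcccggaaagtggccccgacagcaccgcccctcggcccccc

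CACCC was found 4 times in Itga4 and 4 times in Itgb7, against 2 times in Itgb1, 2 in Icam1 and 0 in Cd44. Of 32851 promoter windows of this length, 52.0% held it at least 1 time and 6.92% at least 3 times. GGAANTTCC was found in Icam1 alone of the 5, 1 time, and in 0.813% of all windows. Klf2 itself had 8950, 19691, 8534 and 12493 counts, or 752.5, 1630, 783 and 1068 TPM, in libraries 1, 2, 3 and 4. Library 2 was highest on either scale. The lowest was library 3 in counts, although its total was the largest, and library 1 in TPM. The part of Klf2 in the levels of Itgb7 and Itga4 was not tested. A match of letters is a description and does not show binding.

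For each member the gene with the most similar level in the 4 libraries was found among 12459 others, by the root mean square difference in log2(TPM + 1). It was Bub1b for Itgb1 (0.020), Dennd1c for Icam2 (0.041), Cyb561a3 for Icam1 (0.046), Atox1 for Itgb2 (0.056), Rpn1 for Itgal (0.059), Relb for Cd44 (0.075), Fcer1g for Selplg (0.089), St3gal1 for Itga4 (0.12) and Ptms for Itgb7 (0.14). The members that were even in normalised CPM had closer neighbours than Selplg, Itga4 and Itgb7. Evenness in TPM did not sort the distances: Itgb1, with the closest neighbour, had a coefficient of variation of 18.3% in TPM, against 20.2% for Itga4. With 4 libraries this measure mostly reflects level.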

How the data were processed

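Poly(A)-selected RNA of 4 libraries, 1 group, was read from a single end (50 nt) on a DNBseq machine with a target of 20 M reads, per the labels' protocols. The submitters' processing notes name FastQC, STAR 2.5.2b, featureCounts 1.6.0 and the mm10 build. Which annotation was used, whether strand was used and how multi-mapping reads were treated is not given in the sources used here. Raw counts per gene were deposited. Every count column was used, and libraries are numbered in the order of their accessions.

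Exon lengths came from GENCODE M21 (GRCm38), which matched 37536 of 37646 identifiers, and TPM was computed from them. Genes in TPM lists needed a length and a symbol of their own. Variation was tested with edgeR 4.0.16 (R 4.3.3): after filterByExpr and TMM, glmQLFit was run with only an intercept (legacy = FALSE), the ratio of a gene's quasi-dispersion to the trend was compared with F, and p-values were adjusted by Benjamini-Hochberg with a threshold of 0.05. Pairs were tested by exact sign-flip permutation with pseudocount 1. DESeq2 1.42.0, limma 3.58.1 and Python 3.11.15 did the rest. Alternatives were other scalings, filters, gene lengths, a pseudocount of 0.1, other tools and each library left out.

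The members and lists were chosen with earlier results of these data known. Listed genes that matched no row were not analysed here, and 1 further listed gene is not reported here. Genes outside the 9 were named by rule: the 3 highest and the lowest of each list, alpha chains that share a beta chain, the nearest gene of each member and the highest marker of a list. Bcl6, Klf2, Fermt3, Ly6c2, Ddx3y, Xist, Cerkl and Gm47079 were added for what they show. Counting errors cover counting alone, because PCR copies cannot be recognised without molecular identifiers.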

Additional observations from a re-analysis of the deposited data

Results flagged for a closer look

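Each value below lay farther from the other 3 libraries than Dixon's 95% limit for 4 samples allows. Of 38 sets of 4 values examined, 4 did so, and for a single set chance gives about 1 in 20. The sets are not independent, because each member was entered in TPM and again in normalised CPM. The count is therefore a description and cannot be set against chance. Icam1 and Icam2 were both high in library 2, at 127.2 against 101.5 to 102.6 normalised CPM for Icam1 and at 66.23 against 55.5 to 56.1 for Icam2. In TPM neither gene was highest in library 2. The summed dendritic cell markers (62.33 normalised CPM) and erythroid markers (91.29) were high in library 4, against 51.9 to 53.5 and 29.8 to 38.6 in the others.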

How the results depend on the processing

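No paired analysis was possible because there is 1 group, with no samples of another group to pair; the gene pairs were compared within libraries. Without gene length, all 5 pair differences reversed, to 0.49 for Itgal minus Itgb2, 0.54 for Itga4 minus Itgb1, 0.72 for Itga4 minus Itgb7, 0.18 for Itgb1 minus Itgb7 and 0.88 for Icam1 minus Icam2; the gene named first has the longer exons in each pair. The differences kept their direction with the longest transcript's length, with pseudocount 0.1 and with any library left out. The median level of the 9 genes was 131.7 TPM without mitochondrial and immunoglobulin genes, 26.9 as TMM-normalised CPM per kilobase, 116.8 as CPM and 75.5 TPM with the longest transcript's length, and 59.6 to 61.3 TPM with 1 library left out. The first 3 change the unit or its total. The count of genes that varied more than their trend was 1; it was 262 without a filter on low counts, 63 with edgeR's robust fit, 159 by DESeq2's dispersion outliers, 0 by limma-voom (599 at an unadjusted p under 0.05) and 0 to 19 with 1 library left out (0 without library 2, with 557 unadjusted; 19 without library 3; 3 without library 4). The cause was not tested. None of the 9 genes was called under any of these except Selplg without the filter. Under an edgeR fit the adjusted p ranged from 0.0417 to 0.995 for Selplg. With 4 libraries the test of a pair cannot reach 0.05.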

Other observations

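Among the other integrin chains, Itga2b and Itgb3, which pair as the fibrinogen receptor of platelets, were highest in library 1, at 6.26 and 16.3 TPM. In libraries 2, 3 and 4 Itga2b stood at 2.02, 2.08 and 3.10 TPM and Itgb3 at 7.62, 13.7 and 11.3 TPM. Itga2b was picked after its values were seen. The 4 platelet markers measured summed to 57.1 TPM in library 1 and to 17.1, 8.43 and 18.2 TPM in libraries 2, 3 and 4. Outside library 1, Itgb3 thus did not follow these markers: it was highest in library 3, where they were lowest.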
